A study of Homo sapiens with 6 samples.

Results

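The genes of the arginine methyltransferases and the methylosome were examined in peak lists of METTL3 and PRMT5 from 2 human prostate cancer cell lines. The 10 members are known enzymes and partners of this family, listed by name: PRMT5, WDR77, CLNS1A, RIOK1, COPRS, PRMT1, PRMT3, CARM1, PRMT6 and PRMT7, of 20037 protein-coding genes on chromosomes 1 to 22, X and Y. A member had an entry in a list when the summit of a peak lay inside the gene or within 3 kb of its start or end (hg38); otherwise its nearest entry on the chromosome was taken. The rule for membership uses gene names and no measured value. LNCaP cells respond to androgen and PC3 cells grow without it; both were grown in RPMI-1640 with fetal bovine serum, with no treatment or genetic change named in the labels. Each line gave 1 library with a METTL3 antibody, 1 with a PRMT5 antibody and 1 control, titled IgG, whose antibody label reads 2nd Ab. Each library came from 100000 cells and 16 PCR cycles of an in-situ assay in which the antibody guides Tn5 transposase to cut and tag chromatin. On these chromosomes METTL3 gave 173 entries in LNCaP and 7453 in PC3, and PRMT5 gave 980 in LNCaP and 1661 in PC3. Every list was called by the authors against the control of its line. The number of reads is unknown and every group had 1 library, so there is no replicate spread to set a difference against and no test was made; the values describe these lists. Lists of a line share 1 control, and a longer list tends to lie nearer to any gene.

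Protein arginine methyltransferases move methyl groups from S-adenosylmethionine to arginine side chains of histones, splicing proteins and ribosomal proteins. Type I enzymes such as PRMT1, PRMT3, CARM1 and PRMT6 make asymmetric dimethylarginine, PRMT5 makes the symmetric form, and PRMT7 makes monomethylarginine. PRMT5 works in a stable complex with WDR77, the methylosome, and adaptor proteins choose its substrates: CLNS1A brings Sm proteins of the spliceosome, RIOK1 brings other substrates in its place, and COPRS directs the enzyme to histones.

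The bases before the starts of members and of their nearest PRMT5 entries are shown first, to set members without an entry there beside starts that hold one. All are the 250 bases before a start from RefSeq (GRCh38.p14), written 5′ to 3′ on the strand of the gene, and all 10 members matched a window in that table. PRMT5, PRMT3 and PRMT7 are members and held no summit of any list in these bases; PRMT5 is the target of an antibody used here, PRMT3 the member with an extended E-box, the palindrome TCACGTGA, and PRMT7 the member with an entry close behind its start. RBM15 and QTRT1 are not members, and their starts hold the LNCaP PRMT5 entries nearest to WDR77, PRMT6 and CARM1. They are examples: both hold the extended E-box, which 34.6% of all such windows with an LNCaP PRMT5 summit held. Capitals mark the CCAAT box in PRMT5 (read as ATTGG on the other strand), the extended E-box in PRMT3, RBM15 and QTRT1, and the GC box GGGCGG in PRMT7 (read as CCGCCC).
PRMT5 (chr14:22929377-22929626, minus strand): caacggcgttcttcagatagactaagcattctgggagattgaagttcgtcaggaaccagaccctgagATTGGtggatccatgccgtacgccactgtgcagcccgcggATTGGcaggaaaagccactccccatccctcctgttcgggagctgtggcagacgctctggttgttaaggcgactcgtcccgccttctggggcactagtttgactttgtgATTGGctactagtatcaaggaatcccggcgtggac
PRMT3 (chr11:20387466-20387715, plus strand): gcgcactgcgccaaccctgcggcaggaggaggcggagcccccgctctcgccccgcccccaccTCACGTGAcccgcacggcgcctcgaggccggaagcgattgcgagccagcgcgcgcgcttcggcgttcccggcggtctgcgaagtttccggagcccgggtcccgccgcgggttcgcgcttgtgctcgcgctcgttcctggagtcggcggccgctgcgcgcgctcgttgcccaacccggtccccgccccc
PRMT7 (chr16:68310769-68311018, plus strand): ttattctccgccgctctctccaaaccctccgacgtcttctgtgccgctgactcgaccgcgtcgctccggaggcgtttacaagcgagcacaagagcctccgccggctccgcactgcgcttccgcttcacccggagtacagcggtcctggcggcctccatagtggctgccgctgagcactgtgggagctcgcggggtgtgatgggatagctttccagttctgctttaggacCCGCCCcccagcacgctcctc
RBM15 (chr1:110339127-110339376, plus strand): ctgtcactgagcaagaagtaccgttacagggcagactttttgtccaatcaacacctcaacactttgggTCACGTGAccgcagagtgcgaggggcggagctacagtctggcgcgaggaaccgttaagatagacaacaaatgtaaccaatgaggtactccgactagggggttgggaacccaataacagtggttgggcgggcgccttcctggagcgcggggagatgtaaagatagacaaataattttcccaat
QTRT1 (chr19:10701189-10701438, plus strand): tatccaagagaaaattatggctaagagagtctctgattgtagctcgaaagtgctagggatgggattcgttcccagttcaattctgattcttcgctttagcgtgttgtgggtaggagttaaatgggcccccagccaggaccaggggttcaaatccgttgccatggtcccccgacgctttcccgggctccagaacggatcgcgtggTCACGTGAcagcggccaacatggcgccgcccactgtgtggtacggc

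Few members carried an entry. In LNCaP none of the 10 had one in the METTL3 list, where 0.389% of all protein-coding genes did by the same rule, and none in the PRMT5 list, where 3.08% did. PC3 METTL3 entries lay in PRMT3 and PRMT7, 2 of 10, against 11.6% of all genes. In PC3 PRMT5, CARM1 alone had entries, 1 of 10, against 4.59% of all genes. Of 40 pairs of gene and list, 3 thus held an entry, 4 entries in all, and the other 7 members had none in any list. With so few genes, these counts cannot be set apart from the shares of all genes. No member was close to the limit of 3 kb: all 4 entries had their summits inside the gene, and the nearest summits outside were 20.9 kb from PRMT1 (PC3 PRMT5) and 24.3 kb from CARM1 (PC3 METTL3).

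**Figure D1:**
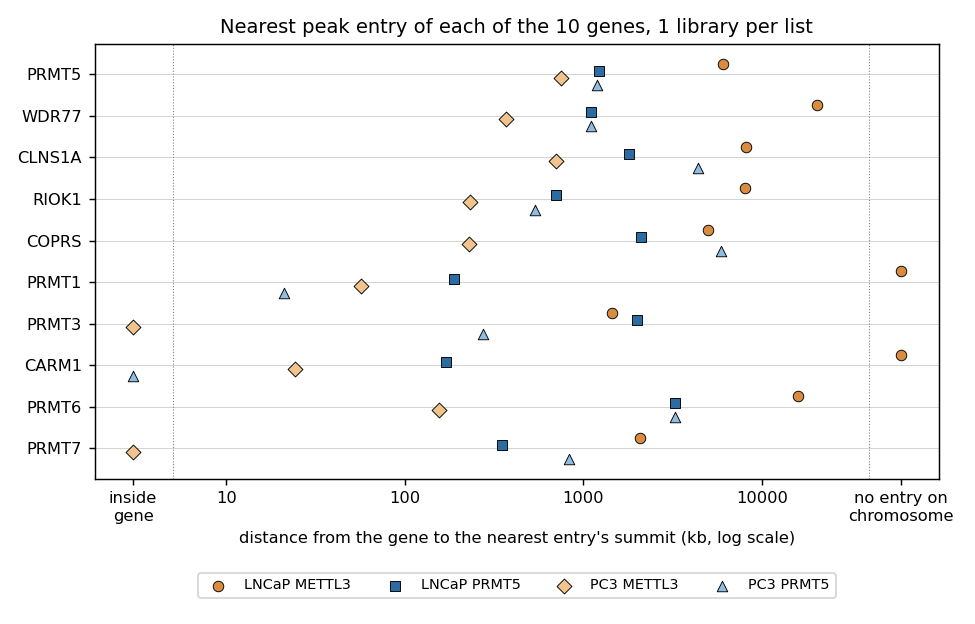
Distance from each of the 10 genes (rows) to the summit of the nearest entry in each list (symbols), in kb on a log scale, 1 library per list. PRMT3 and PRMT7 hold a PC3 METTL3 summit and CARM1 a PC3 PRMT5 summit; PRMT1 and CARM1 have no LNCaP METTL3 entry on their chromosome.

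The methylosome core had no entry near it in either line. PRMT5, the catalytic subunit, lies on chromosome 14 at 22920529 to 22929376. Its nearest PRMT5-antibody summits were 1.22 Mb away in LNCaP, inside RNF31 (a linear ubiquitin ligase gene), with a fold over control of 5.00, and 1.19 Mb away in PC3, inside DCAF11, with a fold of 5.30. These entries of the 2 lines did not overlap. Its nearest METTL3 summits were 6.09 Mb away in LNCaP (fold 6.73) and 746 kb away in PC3 (fold 5.61). The PC3 METTL3 distance was long for that list, since 12.7% of protein-coding genes lay farther from an entry. The other 3 distances of PRMT5 were near the middle of the list, with 40.8% to 60.8% of genes farther.

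WDR77, the beta-propeller partner of PRMT5, lies on chromosome 1 at 111439890 to 111449256. Its nearest PRMT5 entry was the same site in both lines, 1.1 Mb away at the start of RBM15, which encodes an adaptor of the m6A methyltransferase and is a known substrate of PRMT1. In LNCaP this entry had a fold of 16.6, above 95.9% of the list, with its summit 147 bp before RBM15. In PC3 it had a fold of 3.96, above 11.1% of the list, with its summit 172 bp before RBM15. The entries of the lines overlapped, and no METTL3 entry overlapped them. WDR77 was 20.3 Mb from a METTL3 summit in LNCaP and 368 kb from one in PC3, inside the potassium channel gene KCND3.

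Among the adaptors, CLNS1A on chromosome 11 (77614530 to 77637794) was 1.80 Mb from an LNCaP PRMT5 summit at the autophagy gene UVRAG, of fold 8.55, and 4.37 Mb from a PC3 PRMT5 summit in P2RY2, of fold 5.30. Its METTL3 distances were 8.12 Mb in LNCaP and 707 kb in PC3. RIOK1 on chromosome 6 (7389808 to 7418037) was the adaptor nearest to PRMT5 entries, 703 kb in LNCaP and 538 kb in PC3. Both of those entries lay between genes, 32.2 and 196 kb from LY86, and did not overlap. METTL3 summits were 8.10 Mb from RIOK1 in LNCaP and 232 kb in PC3. COPRS on chromosome 17 (31851871 to 31859244) was 2.11 Mb from an LNCaP PRMT5 summit inside SSH2, and 5.93 Mb from a PC3 PRMT5 summit, the farthest PC3 PRMT5 distance of the 10. The latter site, of fold 7.82, was covered by a PC3 METTL3 entry of fold 10.3 and lay 1370 kb from the nearest protein-coding gene. No entry was screened here for lying in repeats, this site included. For METTL3, COPRS was 5.02 Mb from a summit in LNCaP and 230.0 kb in PC3. All 5 genes of the methylosome and its adaptors were thus at least 230.0 kb from every summit of every list. The nearest list to each of them was PC3 METTL3, where 11.6% of all protein-coding genes had an entry. In that list from 12.7% (PRMT5) to 40.9% (COPRS) of all protein-coding genes lay farther from an entry than these members.

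The type I enzymes held 3 of the 4 entries. CARM1, a transcriptional coactivator that methylates histones, lies on chromosome 19 at 10871553 to 10923075, is 51.5 kb long and had both PC3 PRMT5 entries. The stronger, at positions 10914215 to 10914393, had a fold of 6.48, a −log10 q of 4.33 and its summit 42.8 kb after the start, at 83.0% of the gene's length. The weaker, at positions 10920841 to 10921004, had a fold of 4.82, a −log10 q of 2.75 and its summit 49.3 kb after the start, 1.34 kb from YIPF2, whose end overlaps that of CARM1. That summit counts for both genes. Neither lay near the starts that RefSeq lists for CARM1, the nearest being 41.9 kb away. In rank, the stronger entry was above 63.6% of the 1661 entries by fold and the weaker above 21.4%. In LNCaP, where 0 entries lay in CARM1, the nearest PRMT5 summit was 170 kb away at the start of QTRT1, a tRNA-guanine transglycosylase gene, with a fold of 9.84. PC3 had an overlapping entry there of fold 2.18. METTL3 had no entry on chromosome 19 in LNCaP, and the nearest in PC3 was 24.3 kb from CARM1, with a fold of 5.31.

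PRMT3, an enzyme known for methylating a ribosomal protein, lies on chromosome 11 at 20387716 to 20509338 and is 122 kb long. Its PC3 METTL3 entry spanned positions 20506509 to 20506800, with a fold of 5.31 and a −log10 q of 3.57. The summit was 119 kb after the start and 2.82 kb before the end of the gene. Elsewhere PRMT3 had distant neighbours: 1.44 Mb for LNCaP METTL3, 1.99 Mb for LNCaP PRMT5, at LDHA (lactate dehydrogenase A), and 275 kb for PC3 PRMT5, inside NAV2. The LDHA entry had a fold of 7.28 and overlapped a PC3 PRMT5 entry of fold 4.39.

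PRMT7 lies on chromosome 16 at 68311019 to 68360870 and held the 1 member entry close to a start. The PC3 METTL3 entry spanned positions 68311821 to 68312112, with its summit 0.963 kb after the gene's start and 0.868 kb from the later of the 2 starts listed. It was also 1.04 kb from SLC7A6OS, the neighbour read in the opposite direction, and so counts for that gene too. Its fold of 4.40 was above 18.4% of the list, and its −log10 q was 2.28. PRMT5 summits were 349 kb away in LNCaP, inside SLC12A4 with a fold of 16.3, and 827 kb away in PC3, 788 bp from AGRP, with a fold of 7.06. The LNCaP METTL3 list was 2.09 Mb away.

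**Figure D2:**
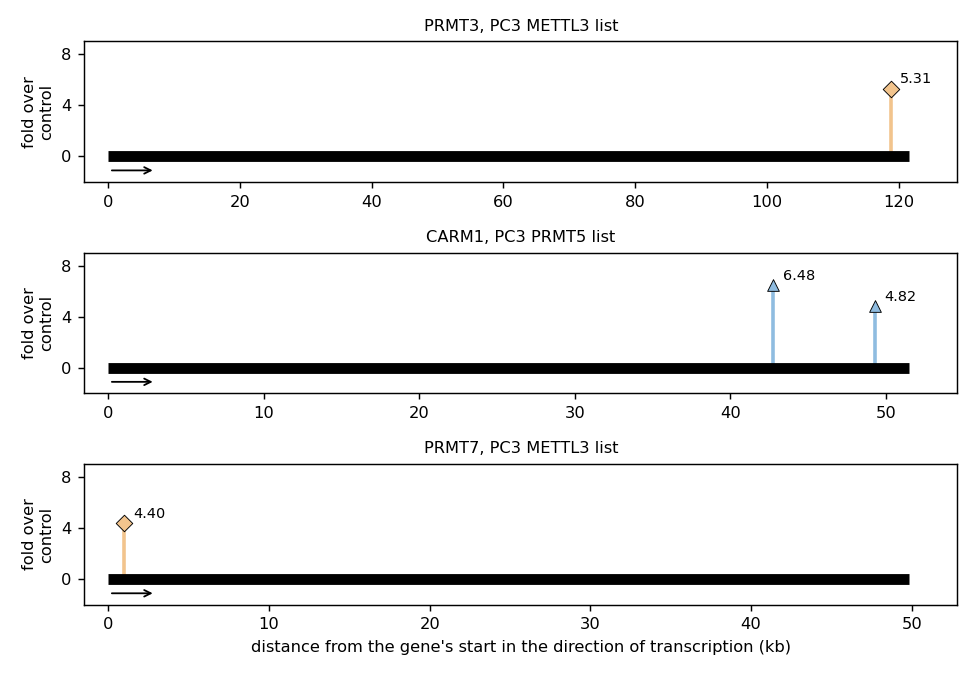
The 4 entries inside members, along each gene (black bar, arrow in the direction of transcription) by distance of the summit from the start in kb, with the fold over control as height. The CARM1 and PRMT3 summits lie in the last part of their genes and the PRMT7 summit just after its start. Folds run from 4.40 to 6.48 and were not scaled between lists.

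PRMT1, the main asymmetric methyltransferase of most cells, and PRMT6, a nuclear enzyme acting on histones, had no entry. PRMT1 on chromosome 19 (49676153 to 49688447) was nonetheless near entries, at 20.9 kb for PC3 PRMT5 (inside CPT1C, fold 6.48), 57.1 kb for PC3 METTL3 (inside TSKS, fold 5.92) and 189 kb for LNCaP PRMT5. The last lay in AKT1S1, which encodes an mTOR complex subunit, and 189 bp from TBC1D17. It had a fold of 9.0 and overlapped a PC3 entry of fold 2.59. Of all protein-coding genes, 91.9% were farther than PRMT1 from a PC3 PRMT5 entry and 81.3% from an LNCaP one. PRMT6, the shortest member at 2.62 kb, lies on chromosome 1 at 107056674 to 107059294. Its nearest PRMT5 entry in both lines was the RBM15 site, 3.28 Mb away, and its nearest METTL3 summits were 15.9 Mb away in LNCaP and 155 kb in PC3. In the PC3 METTL3 case PRMT6 was itself the nearest protein-coding gene to the entry.

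The members' distances were set beside those of all protein-coding genes, with no test. The median distance, with a member lacking any entry on its chromosome taken as farthest, was 8110 kb for LNCaP METTL3 against 9200 kb for all protein-coding genes, and 1160 kb for LNCaP PRMT5 against 1110 kb. In PC3 it was 192 kb for METTL3 against 163 kb, and 964 kb for PRMT5 against 771 kb. In these lists 6, 5, 5 and 4 of the 10 members were at or under the median of all genes. PC3 METTL3, the longest list, was the nearest to 8 members, and PC3 PRMT5 to the other 2, PRMT1 and CARM1. When each list was cut to its 173 entries of highest −log10 p, the order turned: LNCaP PRMT5 was the nearest to 6 members, PC3 PRMT5 to 2 (RIOK1 and PRMT1), and each METTL3 list to 1. In these cut lists the PRMT5 entries were nearer than the METTL3 entries for 8 members in LNCaP and 6 in PC3. The cut left LNCaP METTL3, with 173 entries, whole. These counts were not made over all protein-coding genes, so they show no trait particular to the members.

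**Figure D3:**
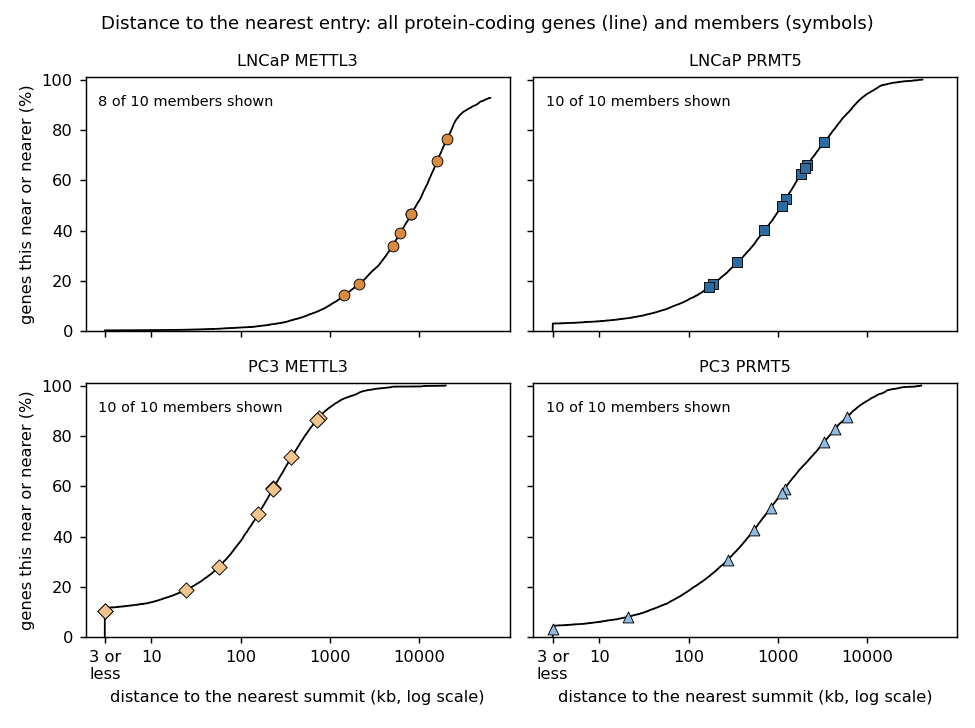
Percent of all protein-coding genes (line) whose nearest summit is at a given distance or less, in kb on a log scale, with the members on the curve (symbols); 1 panel per list. Members spread along each curve, from PRMT3, CARM1 and PRMT7 at its left end in the PC3 panels to COPRS at 5930 kb for PC3 PRMT5.

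The 3 members with an entry were also the 3 longest, at 122, 51.5 and 49.9 kb, while the others ran from 2.62 to 28.2 kb. With protein-coding genes split by length into 4 equal classes, 30.7% of the longest class, which takes in PRMT3, had a PC3 METTL3 entry. The share was 9.38% in the next class, which takes in PRMT7 and CARM1, and 1.96% in the shortest. The PC3 PRMT5 shares varied less with length, at 4.89% in the class of CARM1 and 6.15% in the longest. The part of length in the members' entries was not tested.

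All 4 entries were of low or middling rank. Both METTL3 entries were 292 bp wide, the smallest width of that list, shared by 5436 of its 7453 entries. The fold and q of the PRMT3 entry were shared by 520 entries of the list, itself included, and those of the PRMT7 entry by 381. The weaker CARM1 entry, 164 bp wide, was at the smallest width of the PC3 PRMT5 list, with 287 of 1661 entries, and 42 entries had the fold and q of the stronger. None of the 4 overlapped an entry of another list. The nearest summit of any other list was 26.5 kb away for the weaker CARM1 entry and 350 kb or more for PRMT3 and PRMT7. Overlap was not counted over all entries of the lists, so this shows no trait particular to the 4.

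CARM1 stood in the densest stretch of the PC3 PRMT5 list. Within 1 Mb of the gene lay 45 PC3 PRMT5 entries, and only 22 protein-coding genes, 0.110%, all on chromosome 19 within 2 Mb of CARM1, had as many. The highest number for any gene was 47. Of the other lists, PC3 METTL3 held 7 entries there, LNCaP PRMT5 held 6 and LNCaP METTL3 held 0. Of the 45, 26 lay within 250 kb before the start of CARM1, around SLC44A2 and QTRT1, with the highest fold, 23.9, at SLC44A2. The other 9 members had 0 to 12 PC3 PRMT5 entries within 1 Mb, against a median of 1 for all genes. The 12 were at PRMT1, also on chromosome 19, where the median over genes was 5. The stretch is rich in genes, with 65 other protein-coding genes within 1 Mb against a median of 23, a number that 9.41% of genes reach. Among these 66 genes, CARM1 included, 20 had a PC3 PRMT5 entry, 30.3%, against 4.59% over the genome. For LNCaP PRMT5 the share was 7.58% in the stretch, also above its 3.08% over the genome. Of all genes, 6.86% had as many LNCaP PRMT5 entries within 1 Mb as CARM1. Of the 45 PC3 PRMT5 entries, 5 overlapped an LNCaP PRMT5 entry. Chromosome 19 as a whole held 11.7% of PC3 PRMT5 entries and 8.06% of LNCaP PRMT5 entries, with 7.24% of protein-coding genes. The part of gene density in these counts was not tested.

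**Figure D4:**
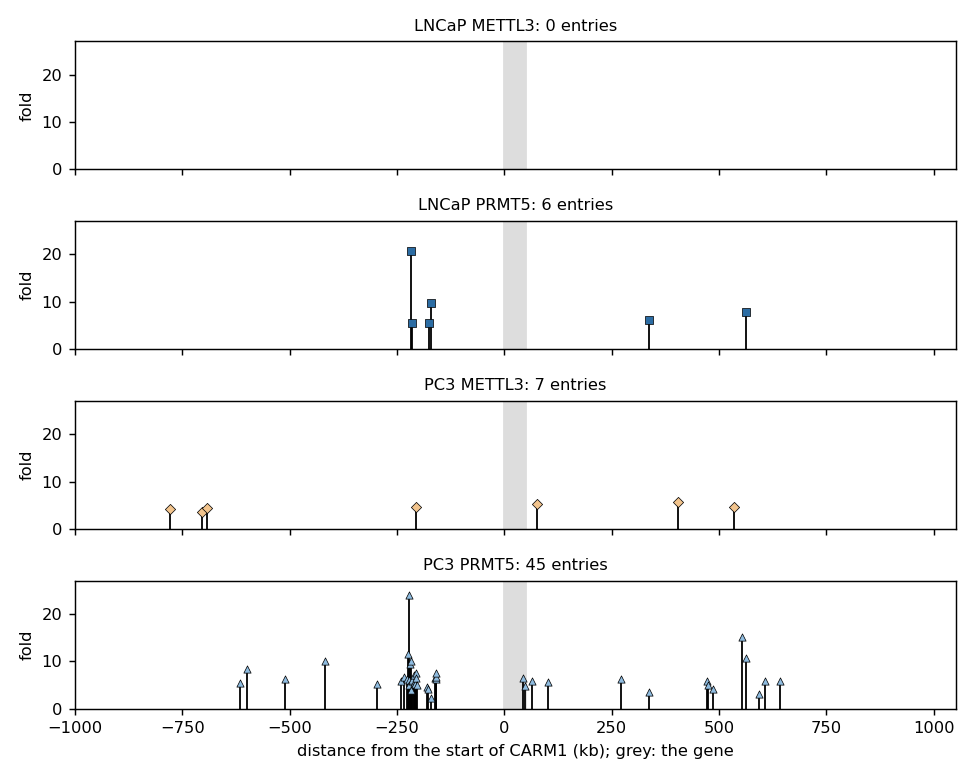
Entries of the 4 lists around CARM1 (grey), by distance of the summit from its start in kb and fold over control. The 45 PC3 PRMT5 entries gather within 250 kb before the gene, where 26 of them lie, whereas the LNCaP PRMT5 list has 6 entries in the stretch.

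The nearest PRMT5 entries, though far from the members, were in LNCaP mostly at the start or end of another gene. There 6 of the 9 distinct entries nearest to members lay within 3 kb of the start or end of a protein-coding gene. Of that list 34.1% did, and 5 of the 9 lay within 500 bp. In PC3 4 of 9 lay within 3 kb, where 28.6% of the list did, and 1 within 500 bp. For METTL3 the numbers within 3 kb were 0 of 7 in LNCaP and 2 of 10 in PC3, the entries of PRMT3 and PRMT7 themselves, against 9.25% and 5.86% of the lists. At RBM15 the midpoint of the extended E-box shown above lay 32 bp from the LNCaP summit and 6 bp from the PC3 summit. At QTRT1 it lay 30.0 bp from the LNCaP summit and 34 bp from the PC3 summit.

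A set of 4 short motifs, chosen after the values were seen, were searched on both strands in the 250 bases before each start. They were the E-box CACGTG, the extended E-box TCACGTGA, which contains it, the CCAAT box and the GC box GGGCGG. PRMT3 was the 1 member of 10 with the E-box and with its extended form, which begins 188 bases before the start; 6.34% and 0.854% of all 35116 windows held them. Among the windows with an LNCaP PRMT5 summit inside, 136 of 179 held the E-box, 76.0%, and 34.6% the extended form; in PC3 99 of 145 did, 68.3%, and 35.9%. Of the 300 windows with the extended form, 20.7% held an LNCaP PRMT5 summit and 17.3% a PC3 PRMT5 summit, and that of PRMT3 held neither. With the first listed window taken for each member, the GC box was found in 7 members, all but PRMT5, CLNS1A and PRMT6; 42.6% of all windows held it. PRMT5, with 3 copies, and PRMT1 held the CCAAT box, as did 32.0% of all windows. The windows of PRMT1, from position 49677021, and COPRS, from position 31858963, lie inside those genes, since their listed starts differ from the gene bounds used here. Windows of genes with several starts or of divergent neighbours overlap, so they are not independent. A match of letters shows no binding.

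**Figure D5:**
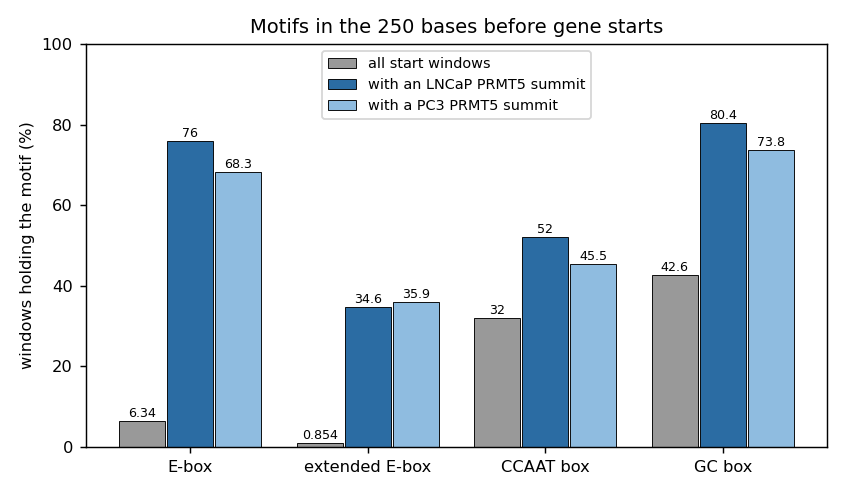
Percent of windows of 250 bases before gene starts that hold each motif, for all 35116 windows and for those with a PRMT5 summit inside in LNCaP (179) or PC3 (145). The E-box is in 6.34% of all windows, 76.0% of those with an LNCaP summit and 68.3% of those with a PC3 summit; of the members, PRMT3 holds it.

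Few genes of the wider pathway had an entry. Of 32 further genes for methyltransferases, the SMN complex, Sm and LSm proteins, readers and methyl-donor enzymes, none had an entry in either LNCaP list, 2 had one in PC3 METTL3 (6.25%) and 1 in PC3 PRMT5 (3.12%). The shares over all protein-coding genes were 0.389% for METTL3 and 3.08% for PRMT5 in LNCaP, and 11.6% and 4.59% in PC3, and no difference from them was tested. PRMT8, the brain-enriched relative of PRMT1, had a PC3 METTL3 entry 57.1 kb after its start, with a fold of 6.83, above 91.1% of the list. SNRPN, which encodes an Sm protein found in neurons, had one of fold 5.28, 13.8 kb after its start and also inside SNHG14. SNRPE, the gene of Sm protein E, had a PC3 PRMT5 entry at chromosome 1, positions 203861403 to 203861568, 185 bp before the start in the gene table and 0.433 kb from the start in the promoter table, with a fold of 5.91, above 51.1% of the list. The Sm genes whose proteins PRMT5 is known to methylate, SNRPB, SNRPD1 and SNRPD3, had none. SMN1 and SMN2 are near-identical copies, so reads there could belong to either and their lack of entries is uncertain.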

How the data were processed

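Chromatin of LNCaP and PC3 cells was profiled with 6 libraries, 1 per group, and 4 peak lists were used. The submitters' processing notes name hg38 as the build and MACS2 2.1.0, Bowtie 1.1.1, Trimmomatic 0.33, bcl2fastq 2.17 and ChIPseeker as tools; their settings and any shift of reads or removal of duplicates are not given there. The authors deposited for each peak a score, a fold (ratio over the control's expected signal), −log10 p and −log10 q, and the summit. These are the authors' own values and were ranked only within a list. Folds of different lists given side by side were not scaled to each other. The largest q was 0.0495. Some of the marker genes looked up are not reported here.

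Entries outside chromosomes 1 to 22, X and Y were dropped, and no other regions were left out. Genes came from a RefSeq table of GRCh38.p14, the primary coordinates of hg38; strands and further listed starts came from the RefSeq promoter table. The table has no exons, so exon, intron and UTR positions were not used here. Distances ran from the gene to the summit with Python 3.11.15 and pandas 2.3.3, and were tested on planted summits. Members and lists were chosen with earlier results of these data known. The genes named are all members, the pathway genes with an entry, and the gene nearest to each member's nearest entry. Alternatives were windows of 1, 10 and 50 kb, any base of an entry, and gene starts and ends alone. Others were a −log10 q of at least 3, a fold of at least 5, and lists of equal length.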

Additional observations from a re-analysis of the deposited data

How the results depend on the processing

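The LNCaP counts of 0 members held in every alternative run. Those of 0 pathway genes held in the alternatives run for them, which left out windows of 1 and 50 kb. The pathway gene PRMT2 lay 34.8 kb from an LNCaP PRMT5 summit, so a window of 50 kb would take it in. In PC3 METTL3 the count of members was 1 with a −log10 q of at least 3 or a fold of at least 5 (PRMT7 was lost). It was 3 with a window of 50 kb (CARM1 was added) and 0 in lists of equal length. The count of pathway genes was 4 with a window of 10 kb, 0 at gene starts and ends alone and 0 in lists of equal length. In PC3 PRMT5 the members were 2 with a window of 50 kb and 0 in lists of equal length. The pathway genes were also 0 in lists of equal length. With a −log10 q of at least 3 the members' median distance was 18500 kb for LNCaP METTL3, 1900 kb for LNCaP PRMT5 and 721 kb for PC3 METTL3. Lists of equal length gave 2870 kb for LNCaP PRMT5, 15400 kb for PC3 METTL3 and 4850 kb for PC3 PRMT5; shorter lists lie farther by construction. With genes of all types the share with an entry was 0.246% for METTL3 and 1.66% for PRMT5 in LNCaP, and 6.76% and 2.33% in PC3. Distances to the nearest base of an entry stayed within 1.5 times in all 38 cases. No paired analysis was possible because every group had 1 library. Depth is unknown, so the lack of an entry does not show that a protein was absent from a gene.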

Other observations

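Genes that mark the lines by expression were also looked up. Among them, KLK2, an androgen-regulated kallikrein of luminal prostate cells, had a PC3 METTL3 entry 2.68 kb before its start, of fold 6.83. AXL, a receptor kinase gene, had a PC3 PRMT5 entry inside it, of fold 7.79. KLK3, TMPRSS2, FOLH1, VIM, CD44 and CAV1 had none in any list. Peak lists of these antibodies do not measure expression, so the labelled lines could not be checked this way.

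The members' start windows had a median of 62.4% G and C (51.2% at WDR77 to 83.6% at COPRS). Over all windows the median was 58.0%, with quartiles of 46.4% and 68.0%, so the members' median was within the usual range. Beside the E-box, the CCAAT box was in 52.0% of windows with an LNCaP PRMT5 summit and 45.5% with a PC3 one, and the GC box in 80.4% and 73.8%.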
